A study of Homo sapiens and Mus musculus with 24 samples.

Results

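The loci of Kit, Myb, Runx1 and Spi1 were examined in chromatin immunoprecipitation (ChIP-seq) peak lists from mouse fetal liver at embryonic day 14.5. The members are the peaks that overlap 4 windows of the mouse genome, build mm10: chr5:75450000-75670000 for Kit with its upstream enhancers, chr10:21120000-21300000 for Myb with its upstream enhancers, chr16:92595000-92835000 for Runx1 and chr2:91060000-91120000 for Spi1. The windows hold 830 peaks of the 564622 that 12 lists give on the 19 autosomes and chromosome X. Kit has 117 of them, Myb 278, Runx1 302 and Spi1 133. The windows are set by position alone, and no peak value enters the rule. The loci were, however, chosen with earlier results of these data known.

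The lists come from 4 groups of livers with 2 libraries each. Hemogen KO livers were precipitated with an antibody against BRG1. WT livers were precipitated with an antibody against BRG1, against the HA tag or against histone H3 acetylated at lysine 27 (H3K27ac). The authors deposited a list for each library and a further list for each group. The titles call the HA precipitate the hemogen precipitate, and it is called hemogen here. How livers labelled WT came to carry the tag is not in the labels, and no HA precipitate without the tag was analysed here. The labels also do not say how the KO allele was made, whether livers were pooled, or whether the 2 libraries of a group came from separate embryos, so the spread between libraries may be technical. Peak lists hold no expression values, so neither the loss of hemogen in the KO nor the cell makeup of the livers was checked here. In bulk tissue, a site bound in fewer cells and a site bound less in each cell cannot be told apart.

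Hemogen is found in the nuclei of blood-forming cells, and BRG1 is an ATPase of the SWI/SNF complexes, which move nucleosomes. H3K27ac marks active promoters and enhancers. The 4 genes are known for their work in stem and progenitor cells, before red cell maturation. Kit is the receptor for stem cell factor and carries survival and proliferation signals in progenitors. Myb encodes a transcription factor that keeps progenitors dividing, and its expression falls as red cells mature. Runx1 encodes a transcription factor needed for the first blood stem cells to form, and is transcribed from a distal and a proximal promoter. Spi1 encodes PU.1, an ETS-family factor of myeloid and B cells whose activity opposes that of GATA1 in erythroid cells. In mouse, Myb, Kit and Spi1 are each known to have distal regulatory elements upstream of the gene. No annotation of the mouse build was used, so no peak is assigned to a promoter, exon or named enhancer here. Kit and Spi1 are transcribed toward higher coordinates, Myb and Runx1 toward lower ones.

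The number of peaks called differed widely between the lists, and depth differed with it. The KO BRG1 libraries held 3205 and 5592 peaks, against 26329 and 21165 in the WT BRG1 libraries. The depth of the KO immunoprecipitates (computed from the folds, p-values and widths of peaks) was 0.406 and 0.342 of that of WT library 1, against 1.00 and 1.04 in WT. The scaled depth at which the peaks were called differed more. It was 0.259 and 0.262 in the KO libraries, against 1.00 and 0.860 in WT. Genotype and depth cannot be told apart in this design. The authors' fold of a peak is its own enrichment over local background. It describes peaks here and enters the depth recovery, and differences in fold between lists were not tested.

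BRG1 peaks were few at the 4 loci in the KO. The KO libraries had 2 and 4 BRG1 peaks there, against 33 and 28 in the WT libraries. Both KO libraries thus lay far under both WT libraries. The mean was 3 ± 1.41 in KO and 30.5 ± 3.54 in WT (SD, n = 2 libraries each), a ratio of 0.0984. The two-sided exact permutation test gave p = 0.33, the smallest value that 2 against 2 libraries allow. As a share of each library's own list, the loci held 0.0624% and 0.0715% of KO peaks, against 0.125% and 0.132% of WT peaks, a ratio of 0.520 (exact permutation p = 0.33). The authors' group lists, which are longer, gave 18 peaks in KO and 49 in WT, or 0.129% of the KO list and 0.130% of the WT list. The deficit against list length was therefore present in the library lists and not in the group lists. In the library lists most of it lay at Myb. The KO minus WT difference in mean share was -0.0618 percentage points over the 4 loci and -0.0535 at Myb alone. These shares rest on few peaks, 2 and 4 in KO library lists of 3205 and 5592 peaks. At Myb the group lists gave 0.0574% in KO and 0.0611% in WT.

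The 6 KO library peaks lay at Runx1 and Spi1. Runx1 had 2 and 3 KO peaks, against 14 and 15 WT peaks. Its share of the list was 0.0624% and 0.0536% in KO, against 0.0532% and 0.0709% in WT, so the values overlapped (ratio 0.936, exact permutation p = 1). Spi1 had 0 and 1 KO peaks, against 2 and 2 WT peaks, with a ratio of mean shares of 1.05. Myb had 0 and 0 KO peaks, against 17 and 9 WT peaks, or 0.0646% and 0.0425% of the WT lists. Kit had 0 and 0 KO peaks, against 0 and 2 WT peaks. A library with no peak at a locus is not thereby without BRG1, since a call depends on depth.

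**Figure D1:**
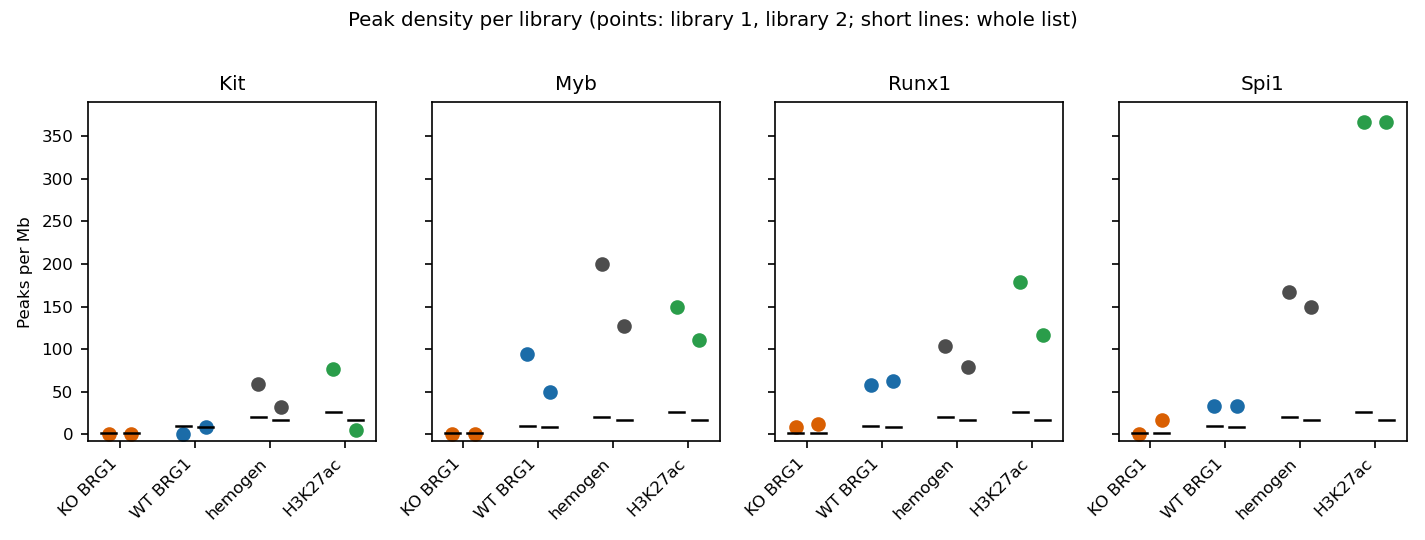
Peaks per Mb of each locus in each library (points, library 1 left of library 2) for KO BRG1, WT BRG1, hemogen and H3K27ac. Short black lines give the density of the whole library list over the genome. WT BRG1 density at Myb was 94.4 and 50.0 peaks per Mb and at Kit 0 and 9.09, while hemogen density lay above its list at all 4 loci in both libraries.

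The loci differed in density of peaks. WT BRG1 reached 94.4 and 50.0 peaks per Mb at Myb, 58.3 and 62.5 at Runx1 and 33.3 in both libraries at Spi1, where the whole lists averaged 10.0 and 8.05. Kit, with 0 and 9.09 peaks per Mb, lay near that average or under it. Hemogen reached 59.1 and 31.8 peaks per Mb at Kit, 200 and 128 at Myb, 104 and 79.2 at Runx1 and 167 and 150 at Spi1, against 20.2 and 16.3 for the whole lists. Kit was thus the locus of the 4 with the lowest hemogen and WT BRG1 density in both libraries. H3K27ac was densest at Spi1, with 367 peaks per Mb in both libraries, against 26.6 and 17.3 for the whole lists. At Kit it gave 77.3 and 4.55 peaks per Mb, so that its libraries fell on either side of the average. The windows are gene-centred while the average includes gene-poor sequence, so a density above the average was not tested as particular to these genes.

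Peaks found in both libraries of a group were merged into regions, and each region's strength is its percentile by the authors' −log10 p, averaged over the 2 library lists. The 4 loci held 15 WT BRG1 regions of 13213 in all, 7 each at Myb and Runx1, 1 at Spi1 and 0 at Kit. They held 43 hemogen regions of 25631, with 6 at Kit, 17 at Myb, 14 at Runx1 and 6 at Spi1. They held 34 H3K27ac regions of 25305, with 1 at Kit, 11 at Myb, 14 at Runx1 and 8 at Spi1. The KO gave 1 replicated BRG1 region, at Runx1.

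Agreement between libraries of a group was set beside that of the whole lists. In KO BRG1, 1 of 2 peaks of library 1 overlapped library 2 (52.3% of the list), and 1 of 4 of library 2 overlapped library 1 (28.9% of the list). In WT BRG1, 19 of 33 peaks of library 1 overlapped library 2 (58.4% of the list), and 19 of 28 of library 2 overlapped library 1 (81.0% of the list). For hemogen the counts were 50 of 84 (58.1% of the list) and 51 of 58 (78.0% of the list). For H3K27ac they were 38 of 109 (40.2% of the list) and 41 of 71 (63.5% of the list). The H3K27ac calls were thus the least shared of the WT marks, at these loci and in the whole lists.

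**Figure D2:**
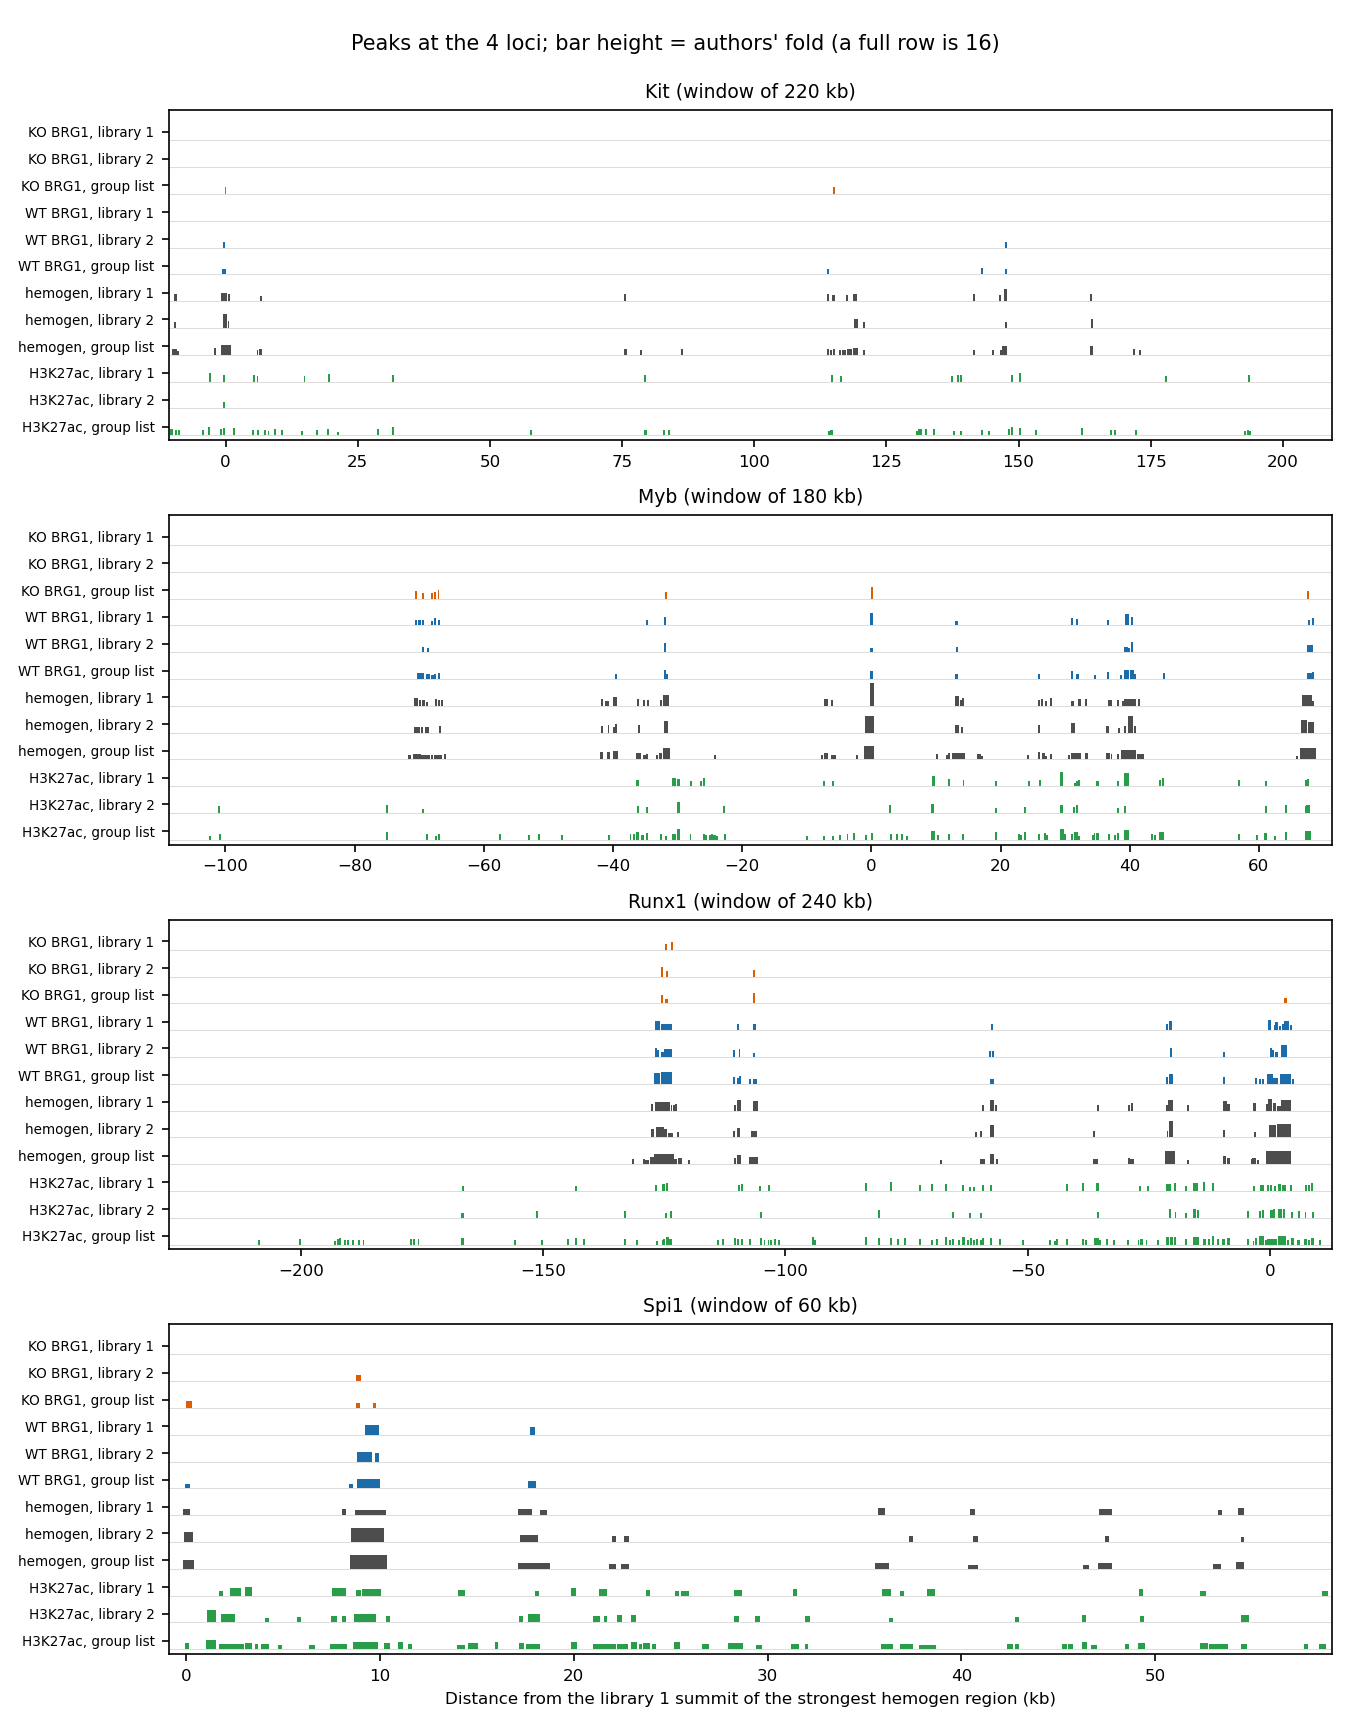
Peaks of the 12 lists at each locus. The x axis is the distance in kb from the library 1 summit of the strongest hemogen region, each row is a list, and bar height is the authors' fold of each peak (highest 13.6, at Myb in hemogen library 1). Very narrow peaks are widened to be visible. The KO libraries are empty at Kit and Myb, and the KO group list has 2 and 8 peaks there.

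Kit, the receptor gene, carried hemogen without replicated BRG1. Its 6 hemogen regions lay in 2 clusters, 3 near the low end of the window and 3 from 119 to 164 kb above the strongest one. The strongest, chr5:75459847-75460980, had folds of 4.76 and 8.21 in the 2 hemogen libraries and a strength of 89.4. The next, chr5:75579460-75580339, had folds of 4.41 and 5.23 and a strength of 72.2, and the other 4 had strengths between 42.2 and 63.0. Of the 13 hemogen peaks of library 1, 6 overlapped a peak of library 2, or 46.2%, where 58.1% of all hemogen library 1 peaks did so.

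No BRG1 region at Kit was called in both libraries of either genotype. WT library 1 had no peak, and WT library 2 had peaks at chr5:75460154-75460478 (fold 3.20) and chr5:75608255-75608430 (fold 3.53). Both overlapped hemogen regions, the first of them the strongest one. The KO group list had a peak at chr5:75460604-75460747 (fold 4.41) and another at chr5:75575702-75576003 (fold 4.45), and the WT group list had 4 peaks with folds from 3.14 to 3.70. The KO peak at chr5:75575702-75576003 overlapped no peak of any WT BRG1 list. It was the single KO group peak of 18 at the 4 loci without one, and 89.1% of all KO group peaks overlapped a WT BRG1 peak, so 17 of 18 is close to the background.

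H3K27ac at Kit depended on the library. Library 1 had 17 peaks and library 2 had 1, and 1 of the 17 (5.88%) overlapped library 2, where 40.2% of all H3K27ac library 1 peaks did. The shared region, chr5:75460252-75460521, had folds of 3.96 and 3.85 and a strength of 37.8. It lay inside the strongest hemogen region. The H3K27ac group list gave 46 peaks at Kit.

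Myb, the factor that keeps progenitors dividing, held the strongest hemogen region of the 4 loci. The region chr10:21227761-21229144 had hemogen folds of 13.6 and 10.1 and a strength of 99.4, which ranked it 184 of 25631. Its summits were at 21228700 and 21228613. WT BRG1 was called in it with folds of 7.52 and 2.29 and a strength of 47.1. The recovered summit heights of the 2 WT peaks were 33 and 30 fragments, over local backgrounds of 3.41 and 12.3 fragments. Neither KO library had a BRG1 peak there, while the KO group list had one with a fold of 6.85. No replicated H3K27ac region overlapped it, although the H3K27ac group list had a peak there.

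The strongest WT BRG1 region at Myb was chr10:21196617-21196940, with folds of 5.18 and 5.38 and a strength of 85.9. It lay in the second strongest hemogen region of the locus, chr10:21196487-21197363, which had hemogen folds of 6.55 and 7.20. Neither KO library had a peak in it, and the KO group list had one with a fold of 4.28. The strongest WT BRG1 region of the locus that was in no KO list was chr10:21268849-21269244, with folds of 5.02 and 6.26 and a strength of 82.2. It shared the hemogen region chr10:21267798-21269629 with a neighbouring BRG1 region, chr10:21267873-21268625, which had folds of 6.92 and 3.41 and was also in no KO list. The hemogen folds there were 4.01 and 9.91.

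The other 3 WT BRG1 regions at Myb had strengths of 17.3, 25.5 and 57.8. The weakest, chr10:21241639-21242159, had folds of 2.65 and 3.41 and was in no KO list, although its hemogen region had a strength of 84.8. The region chr10:21159082-21159445 had folds of 3.51 and 3.45, and chr10:21296127-21297183 had folds of 3.27 and 4.05. Both were in the KO group list, the second at a fold of 4.76. The KO group list had 8 peaks at Myb, of which 5 lay between positions 21158202 and 21161800 at the low end of the locus, with folds from 3.42 to 5.11. WT library 1 had 6 peaks in that stretch and WT library 2 had 2.

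The 2 strongest H3K27ac regions at Myb lay apart from hemogen and BRG1. The strongest H3K27ac region, chr10:21257845-21258423, had folds of 8.36 and 5.09 and a strength of 97.7, with neither a hemogen nor a WT BRG1 region. The next strongest, chr10:21198637-21199112, had folds of 4.55 and 6.81 and also carried neither. Of the 11 H3K27ac regions at Myb, 5 overlapped a hemogen region and 2 a WT BRG1 region. For all H3K27ac regions these shares were 49.0% and 37.2%, and at the 4 loci they were 13 of 34 and 8 of 34.

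Runx1 was the locus with BRG1 peaks in both KO libraries. KO library 1 had peaks at chr16:92697371-92697544 (fold 3.50) and chr16:92698615-92698786 (fold 4.91). KO library 2 had peaks at chr16:92696638-92696858 (fold 5.43), chr16:92697494-92698041 (fold 3.52) and chr16:92715654-92715902 (fold 3.98). The first peak of library 1 and the second of library 2 overlapped and form the replicated KO region. Their summit heights, recovered with the depth, were 28 and 35 fragments, and the other 3 peaks had 25, 25 and 28.

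The Runx1 KO peaks lay in 2 WT BRG1 regions. Over the 4 loci, both peaks of KO library 1 and all 4 of KO library 2 overlapped a WT BRG1 peak, where 98.0% and 95.9% of the whole lists did. Of the 5, 4 overlapped chr16:92696551-92698765, which had WT folds of 3.83 and 4.59 and a strength of 80.6, and was the widest WT BRG1 region of the 4 loci at 2215 bp. In the WT group list its peak had a fold of 6.93, the highest of the 4 loci, and a −log10 p percentile of 99.1. This region was the only one of the 15 WT BRG1 regions called in both KO libraries. It overlapped the widest hemogen region, chr16:92695194-92698551, with hemogen folds of 5.03 and 6.26, and a replicated H3K27ac region. Its upper end reached a second, weaker hemogen region, chr16:92698565-92698929, with a strength of 29.0, where the KO library 1 peak of fold 4.91 lay. The fifth peak lay in chr16:92715579-92716110, which had WT folds of 3.83 and 2.27 and a strength of 37.7. That region overlapped no H3K27ac peak, and its hemogen region had a strength of 93.2.

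The strongest WT BRG1 region of the 4 loci was also at Runx1, at the high end of the window. It was chr16:92824205-92826226, with folds of 5.53 and 7.04 and a strength of 92.1. Neither KO library had a peak in it, and the KO group list had peaks there with folds of 3.35 and 3.15. Its hemogen folds were 6.23 and 7.92, and its H3K27ac folds 3.86 and 5.26. The strongest hemogen region of Runx1, chr16:92821890-92823515, lay beside it, with folds of 6.97 and 7.60 and a strength of 95.4. The WT BRG1 region there, chr16:92821691-92822689, had folds of 5.96 and 5.55 and a strength of 84.8, and was in no KO list.

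The other WT BRG1 regions of Runx1 that were in no KO list were chr16:92695187-92696269 with folds of 5.30 and 5.61, chr16:92801266-92802028 with folds of 5.27 and 5.14, and chr16:92823076-92823800 with folds of 4.67 and 2.87. The region at chr16:92801266-92802028 had hemogen folds of 6.06 and 9.67 and a replicated H3K27ac region. The hemogen region chr16:92764383-92765237, with a strength of 92.8, was the strongest at the 4 loci without a replicated BRG1 region. Both WT BRG1 libraries nevertheless had peaks inside it that did not overlap each other, 1 in library 1 (fold 3.88) and 2 in library 2 (folds 3.34 and 3.71). Of the 14 H3K27ac regions, the strongest was chr16:92806291-92807529, with folds of 4.64 and 5.41, and it had neither hemogen nor BRG1.

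Spi1, the gene of PU.1, had 1 WT BRG1 region. It was chr2:91069678-91070852, with WT folds of 5.66 and 5.78 and a strength of 84.0. KO library 1 had no peak there. KO library 2 had a peak at chr2:91069642-91069877 with a fold of 3.95 and a height of 20 fragments, at the low edge of the region, and the KO group list had 2 peaks with folds of 3.15 and 3.25. The hemogen folds there were 2.90 and 8.34, from recovered heights of 28 and 49 fragments over local backgrounds of 8.99 and 4.69 fragments. It also overlapped the strongest H3K27ac region of the locus, chr2:91069531-91070931, with folds of 3.98 and 4.81.

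The strongest hemogen region at Spi1 by strength, chr2:91060702-91061240, was of middling rank, with folds of 3.85 and 6.19 and a strength of 71.5. The hemogen region at the WT BRG1 region, chr2:91069399-91071173, was close to it at 70.3. In the hemogen group list that site had the higher fold, 8.04 against 5.29, and the higher percentile, 98.6 against 91.5. At chr2:91060702-91061240 the KO group list had a peak with a fold of 4.45 and the WT group list one with a fold of 2.62. None of the 4 BRG1 libraries had a peak in that strongest region. The 3 hemogen regions in the upper part of the window, from 40.6 to 54.4 kb above it, had strengths between 31.9 and 42.1 and no WT BRG1 peak in any list. The 8 H3K27ac regions were spread over the locus, and 2 of them overlapped a hemogen region.

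**Figure D3:**
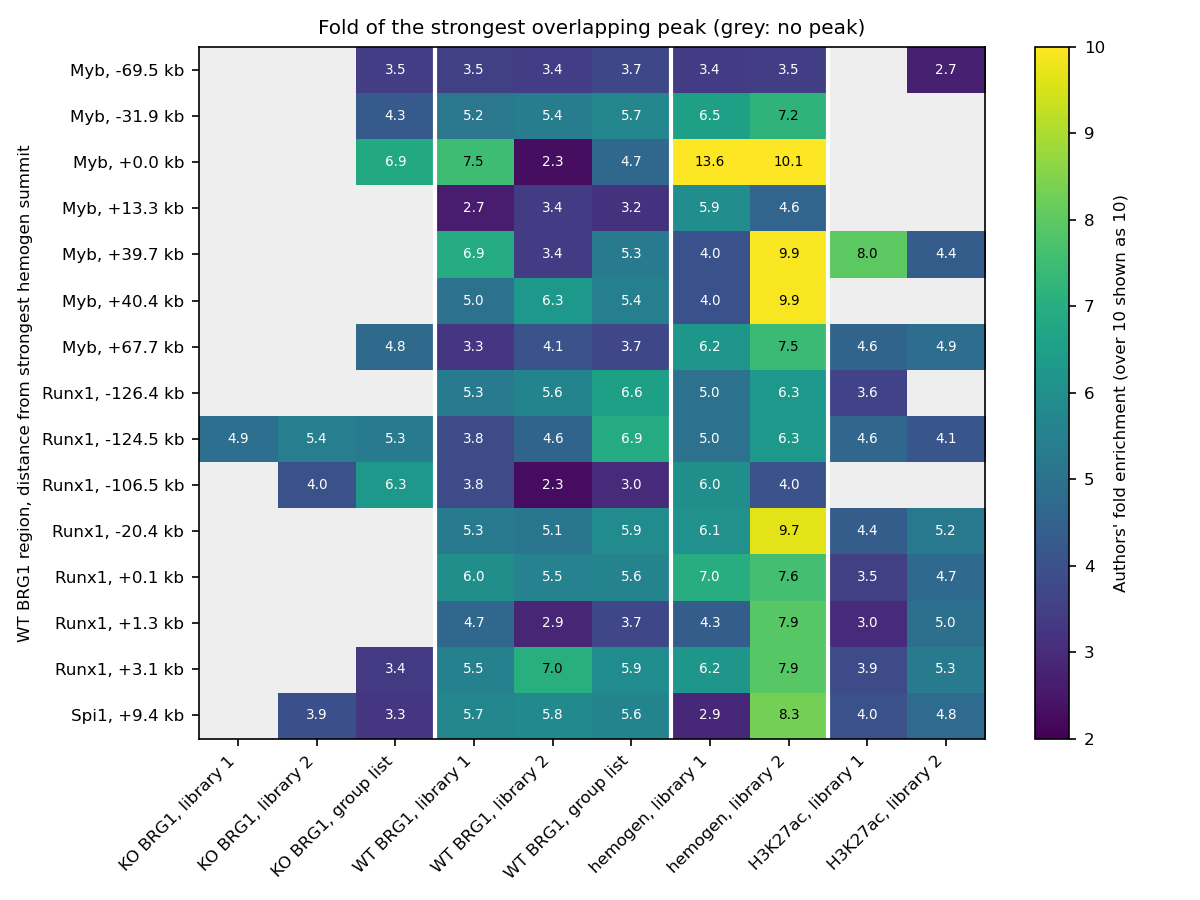
The authors' fold of the strongest overlapping peak at each of the 15 WT BRG1 regions (rows, labelled by distance in kb from the locus's strongest hemogen summit) in 10 lists (columns). Grey marks no peak. The KO library columns hold 1 and 3 values, the hemogen columns are filled in all 15 rows, and 8 rows have a fold in both H3K27ac libraries.

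Over the 4 loci, 8 of the 15 WT BRG1 regions were called in at least 1 KO list, or 53.3% (exact Clopper-Pearson 95% interval 26.6 to 78.7%, counting error only). Over all 13213 WT BRG1 regions the share was 55.3%, so the loci did not stand out from the genome. KO library 1 called 1 of the 15 (18.4% of all regions) and KO library 2 called 3 of the 15 (28.9% of all regions). The KO group list called 8 of the 15 (53.6% of all regions). At least 1 KO library called 3 of the 15, where the share over all regions was 35.3%. By locus, 4 of 7 at Myb, 3 of 7 at Runx1 and 1 of 1 at Spi1 were called in a KO list. The 4 at Myb came from the KO group list alone.

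Calls in the KO were set beside WT strength. Over the genome, the share called in a KO list rose with WT strength, reaching 25.9% in the lowest decile and 91.6% in the highest. Averaging the share of each region's own decile gave 56.9% for the 15 regions, 48.9% for the 7 at Myb and 63.1% for the 7 at Runx1. Among the 7 regions in no KO list were some with strengths of 82.0, 82.2 and 84.8, and among the 8 called were some with strengths of 25.5 and 37.7. Called and uncalled regions thus overlapped in strength. Strength ranks p-values, which depend on local background as well as height. By mean WT height at the depth of WT library 1, the called region of strength 37.7 had 36.3 fragments. The uncalled regions of strengths 82.0, 82.2 and 84.8 had 31.0, 29.9 and 31.9 fragments. The called region of strength 25.5 had 23.0, so the sets overlapped by height too.

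**Figure D4:**
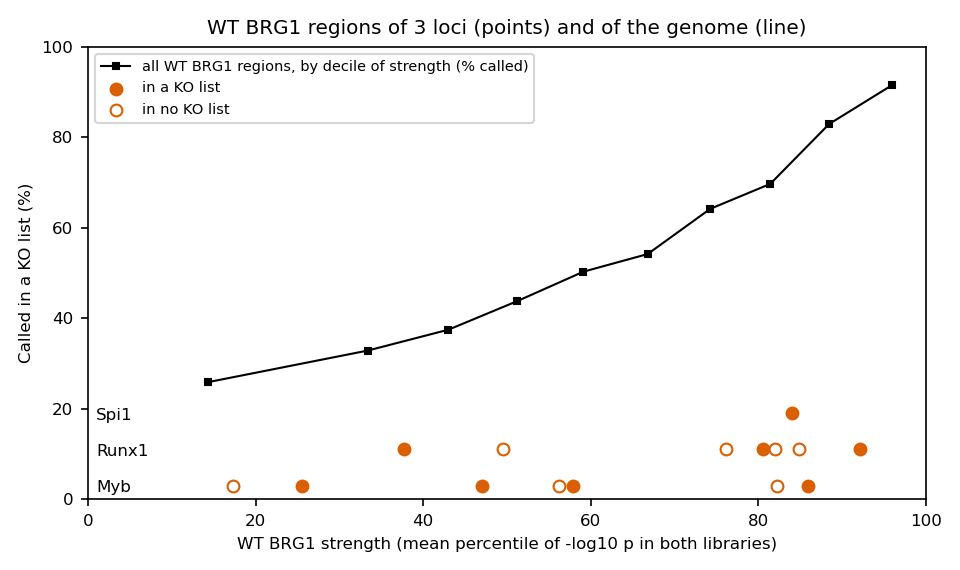
WT BRG1 strength (x axis, mean percentile of −log10 p) of the regions at Myb, Runx1 and Spi1 as points in 1 row per locus, filled where a KO list had a peak. The line with squares is the share of all WT BRG1 regions called in a KO list in each decile of strength, 25.9% to 91.6% (y axis, which applies to the line only). Filled and open points overlap along the x axis.

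The KO calls were also set beside the depth of the KO libraries. Where each region's WT height was scaled to KO depth, 4 of the 15 regions would have passed the lowest −log10 p of KO library 1 and 5 that of KO library 2, against 22.8% and 28.2% of all WT BRG1 regions. The calls were 1 and 3. Of the 4 in library 1 none was among the calls, and of the 5 in library 2 there was 1. Over the genome 44.1% and 55.8% of the regions that would have passed were called. Of the 2433 and 3820 regions that were called there, 1328 and 2079 would have passed, so the scaling missed many calls. The scaling rests on an assumed form of the caller's p-value. It also starts from the strongest peaks of regions called in both WT libraries, a choice that favours high WT heights. How far this choice raised the number that would have passed was not tested.

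All 15 WT BRG1 regions overlapped a hemogen region, where 96.6% of all WT BRG1 regions did, so full overlap was near the background. All 15 also overlapped a peak of the hemogen group list, as 99.7% of all WT BRG1 regions did. The median distance between paired hemogen and BRG1 summits was 178 bp in library 1 and 195 bp in library 2 over 17 overlapping pairs, against 288 and 287 bp over all pairs. Summits lay within 100 bp in 5 of the 17 pairs in each library, or 29.4%, against 26.8% and 27.9% of all pairs. The longest distances at the loci were 1765 and 2058 bp. Replicated H3K27ac overlapped 8 of the 15, where it overlapped 63.9% of all WT BRG1 regions. By locus these were 2 of 7 at Myb, 5 of 7 at Runx1 and 1 of 1 at Spi1. With the longer H3K27ac group list, 11 of the 15 overlapped a peak (89.9% of all regions), 4 of 7 at Myb and 6 of 7 at Runx1.

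Seen from hemogen, 13 of the 43 hemogen regions overlapped a replicated WT BRG1 region, or 30.2%, where 41.6% of all hemogen regions did. The count was 0 of 6 at Kit, 6 of 17 at Myb, 6 of 14 at Runx1 and 1 of 6 at Spi1. Counting a BRG1 peak of any WT list, the figure was 29 of 43, against 72.9% of all hemogen regions. Replicated H3K27ac overlapped 12 of the 43, against 39.8% of all, and the H3K27ac group list 32 of the 43, against 68.5% of all. The 95% intervals for 13 and 12 of 43 were 17.2 to 46.1% and 15.3 to 43.7% (exact Clopper-Pearson, counting error only), and both hold the genome value. Without WT BRG1 library 2, hemogen regions with BRG1 came to 21 of 43, or 48.8%, against 56.8% of all hemogen regions under the same setting. Without H3K27ac library 2, those with H3K27ac came to 19 of 43, or 44.2%, against 52.1% of all.

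Hemogen regions with BRG1 were the stronger ones at these loci, as in the genome. The 13 with a replicated BRG1 region had a median hemogen strength of 92.3, and the 30 without had 46.5, against 83.6 and 51.0 over all hemogen regions. H3K27ac overlapped 7 of the 13 with BRG1 (73.0% of all such regions) and 5 of the 30 without (16.1% of all such regions). The regions with BRG1 ranged in hemogen strength from 29.0 to 99.4 and those without from 19.8 to 92.8, so the sets overlapped. At Myb 2 of the 6 hemogen regions with BRG1 carried replicated H3K27ac, and at Runx1 4 of 6 did.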

How the data were processed

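ChIP-seq peak lists of E14.5 fetal liver were used for 8 libraries and 4 groups. Per the submitters' processing notes the tools include MACS2 2.2.7.1, Picard 2.21.4, Bowtie2 2.3.5 and SAMtools 1.9; their roles are not stated. The build, read filters and call controls are likewise not given in the sources here; contig names and positions fit mm10. The authors deposited, for each peak, a −log10 p-value, a −log10 q-value, the fold (ratio) over local background, a score and a summit offset, with no header. Groups and replicate numbers came from the titles. Names written inside the hemogen lists carry other library numbers than the titles do.

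Peaks sharing 1 bp counted as overlapping. A region is the merged peaks of both libraries of a group with at least 1 peak of each. Windows, lists and tests were chosen with earlier results of these data known. Per locus, the strongest region of each mark, the strongest WT BRG1 region in no KO list and every peak of a KO library are named; the other regions named were chosen after their values were seen. Peak numbers were compared by a two-sided exact permutation test, and shares were set beside the genome with no test.

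Depth was recovered on the assumption that each p-value is a Poisson tail and each fold is height over background after adding 1 to both. Relative depth came from the lowest recurring background and the shortest peak of each list. The scaling factor of each list was chosen by how many heights it made whole within 0.01. At a wider tolerance, heights were whole for 99.97 to 100% of the peaks with a solution, of up to 6000 per list. The share follows from that choice and is no independent check. Overlap, merging and depth recovery were tested on simulated data. Scripts ran in Python 3.11.15 with SciPy 1.17.1, pandas 2.3.3, NumPy 2.4.6 and, for figures, Matplotlib 3.10.9. The 12 K562 libraries and the 2 input libraries of each genotype were not analysed here.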

Additional observations from a re-analysis of the deposited data

How the results depend on the processing

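The KO to WT ratio of BRG1 peaks (0.0984) stayed under 1 in all 9 alternatives run. It was 0.0333 with peaks of −log10 q of at least 5, 0.0591 by covered bases, 0.367 in the group lists, 0.520 by share of the list, and 0.0656 to 0.131 with 1 library left out. The KO lists were shorter, so every alternative but the share of the list was bound toward a ratio under 1. The share is not free of list length either. With BRG1 library lists trimmed to 3205 peaks, the loci held 1 of 1700 WT BRG1 regions, against 15 of 13213 in the full lists. The group lists held 13938 KO and 37655 WT peaks, and the loci held 0.129% and 0.130% of them. The replicate block, pairing KO and WT libraries by number, left the ratio at 0.0984 and gave an exact p of 0.5, the smallest that 2 pairs allow. The labels do not say that the numbers pair the libraries, and deviations of same-numbered libraries did not correlate over 1774 bins of 1 Mb (r = -0.014, 2 pairs). The KO lists are short and their counts per bin low, so this r cannot decide whether the libraries were paired.

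Shares over all regions under the same setting are given after each value. For WT BRG1 regions, the share with a KO call (53.3%, all 55.3%) was 22.2% (2 of 9; all 38.6%) at −log10 q of at least 5, and 6.67% (1 of 15; all 12.1%) where both KO libraries had to call it. Between the 2 group lists it was 28.6% (14 of 49, all 24.6%). It was 0% with BRG1 library lists trimmed to 3205 peaks, where 1 region remained (all 69.6% of 1700). With 1 library left out it ran from 6.67% (without KO library 2, all 18.4%) to 36.4% (without WT library 2, all 35.05%), with 20.0% without KO library 1 (all 28.9%). The KO group list was not used where a KO library was left out. The hemogen share with H3K27ac (27.9%, all 39.8%) was 9.52% (2 of 21, all 32.5%) at −log10 q of at least 5 and 52.3% (56 of 107, all 40.7%) in the group lists. It was 19.05 to 44.2% with 1 library left out, lowest without hemogen library 2 (all 25.4%) and highest without H3K27ac library 2 (all 52.1%). The hemogen share with BRG1 (30.2%, all 41.6%) ran from 20.2% without hemogen library 2 (all 25.1%) to 48.8% without WT BRG1 library 2 (all 56.8%). The cause of these shifts was not tested. The WT BRG1 shares with hemogen and with H3K27ac stayed within the counting intervals of their main values in 7 of 7 alternatives each, at 87.8 to 100% and 33.3 to 77.6%.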
